A study of Mus musculus with 2 samples.

Results

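The genes described here are 27 genes of cholesterol synthesis and of its regulation by SREBP2, among 24091 genes in the deposited table. They were chosen by name as enzymes of the mevalonate and sterol pathway, regulators of SREBP2, and proteins that carry sterols inside the cell. All 27 were found in the table, and expression was compared between 2 libraries of polyadenylated RNA. One library was labelled as primary adipocytes of C57BL/6 mice without radiation (sham-irradiated), and the other as primary adipocytes of C57BL/6 mice given pelvic radiation. The labels state 7.5 Gy and 5 days, and it is not clear from them whether the dose was daily or in total. In both groups, gonadal fat was taken 2 months after the radiation or sham procedure, broken up with collagenase, and its floating cells were cultured for 3 days. Both sample titles also name PBS, with no statement of what it was given for. The sources used here do not give the age of the mice or how many were pooled in a library. Each condition has 1 library, so no difference has a replicate check and no p-value was computed.

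Cells make cholesterol from acetyl-CoA. The mevalonate steps build isoprene units, which are joined to squalene, closed to the ring of lanosterol, and trimmed to cholesterol. SREBP2 is a transcription factor that is held in the endoplasmic reticulum by SCAP and the INSIG proteins while sterols are plentiful. When sterols are scarce, it is cut free and switches on the genes of the whole pathway. Mature fat cells store much of their cholesterol in the lipid droplet, and they take up a large share of it from lipoproteins.

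Recovered depth was 30600000 fragments (sham) and 35000000 (irradiated). Levels are given as FPKM, the fragments on a gene per kilobase of its length and per 1000000 in the library, which can be compared between genes, with the sham-irradiated value first (sham). A difference is the log2 value of the irradiated library minus that of the sham-irradiated library, on the deposited log2(FPKM + 0.1) scale. Intervals in brackets are exact 95% binomial intervals of the fragment ratio on the log2 scale, and they cover counting error only. A gene was compared if its FPKM reached 1 in either library, which left 11253 genes with a median difference of 0.02.

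The material was checked against markers of the labelled cell type. None of the 7 mature adipocyte markers reached an FPKM of 1 in either library. Their summed FPKM was 1.58 (sham) and 2.20 (irradiated). The 6 fibroblast and progenitor markers summed to 3510 and 2804, with 3 of 6 lower by at least 0.25. Pdgfra, Col1a1, and Col3a1 had differences of -0.37, -0.44, and -0.33, and Dcn, Lum, and Dpt had 0.01, 0.01, and -0.05. The FPKM of Col1a1, the most abundant of the 6, was 1937 and 1428. Of the 8 macrophage markers, 6 were higher by at least 0.25, and their sums were 579.6 and 617.0. Lyz2, the most abundant of the 8, had an FPKM of 442.5 and 410.0, a difference of -0.11 [-0.14 to -0.08], and the other 7 summed to 137.1 and 206.9. Of the 6 mesothelial markers, 5 were higher by that amount, with sums of 32.9 and 45.3, or 12.5 and 26.7 without Wt1, which had a difference of -0.13. The 4 endothelial markers summed to 34.6 and 37.4 with 1 higher, and the 6 proliferation markers to 254.6 and 241.9 with 1 lower. Over all genes compared, 13.8% were higher and 6.04% lower by at least 0.25. Of all these markers, the adipocyte hormone gene Lep was the one with no fragments in a library, the sham-irradiated one. The part of these shifts in the results that follow was not tested. In a bulk library, fewer cells of a type and less RNA of a gene per cell cannot be told apart.

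Most genes that make cholesterol had lower values in the irradiated library. Of the 27 genes, 26 reached an FPKM of 1, and all 26 did so in both libraries. Among these 26, 20 were lower and 6 were higher, whereas 44.0% of all genes compared were lower and 53.5% were higher. The median difference was -0.19, against 0.02 over all genes. A difference of -0.25 or below, which is 0.841 of the sham-irradiated value or less, was found for 11 of the 26 (42.3%) and for 6.04% of all genes compared. A difference of 0.25 or above was found for 0 of the 26 and for 13.8% of all genes. The counting interval lay below 0 for 16 members and above 0 for 5, and for 17.4% and 23.8% of all genes, respectively. No member differed by 0.5 or more in either direction, where 4.31% of all genes compared were higher and 1.44% lower by that amount.

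**Figure D1:**
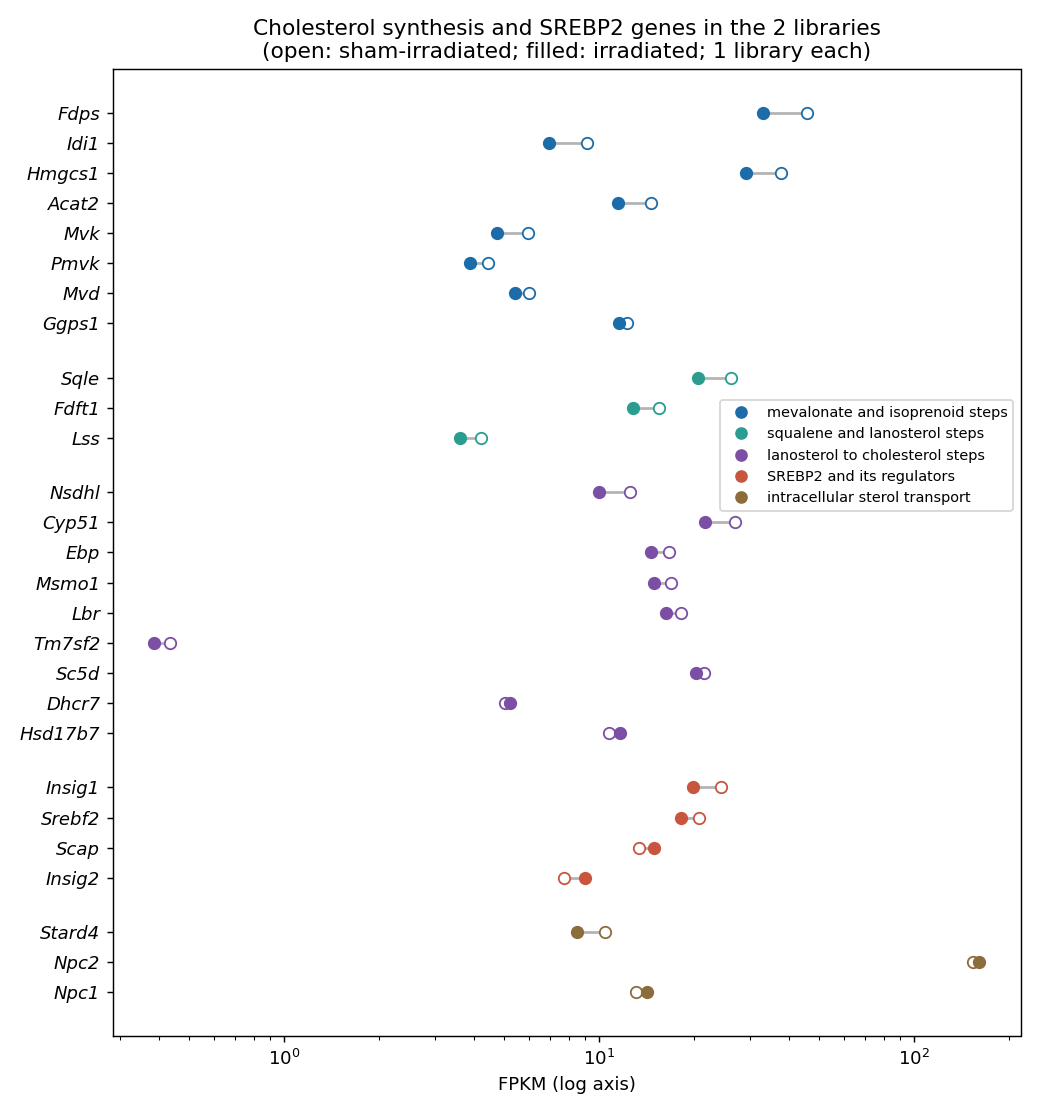
FPKM of the 27 genes on a log axis, with the sham-irradiated library as open and the irradiated library as filled circles, 1 library each, coloured by role. The filled circle lies to the left of the open circle for all 8 mevalonate genes and all 3 squalene genes, and to the right for Hsd17b7, Dhcr7, Scap, Insig2, Npc1, and Npc2.

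The lower values lay mostly among the 20 genes of the synthesis steps. Their summed FPKM was 310.8 (sham) and 257.9 (irradiated), a ratio of 0.83. The other 7 members, which regulate SREBP2 or carry sterols, summed to 242.8 and 245.5, and without the abundant Npc2 the remaining 6 summed to 89.7 and 84.7. Of the 19 synthesis genes compared, 17 were lower, 9 of them by at least 0.25, and the median difference was -0.22. Of the other 7, 3 were lower and 4 were higher, with a median of 0.07.

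Of the 8 genes of the mevalonate steps, 5 were lower by at least 0.25, with counting intervals below 0. The other 3 also had lower values, with intervals that included 0, and the median difference was -0.34. Their summed FPKM was 135.9 and 106.1, a ratio of 0.781.

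Fdps, which encodes farnesyl diphosphate synthase, the enzyme that supplies both sterols and protein prenylation, had the lowest difference of all 27 genes. It lies on chromosome 3 from 89093588 to 89101967 (mm10), and its FPKM was 45.8 (sham) and 33.03 (irradiated). This is a difference of -0.47 [-0.57 to -0.38], or 0.722 of the sham-irradiated value, and 1.57% of all genes compared had a lower difference. GENCODE places the predicted gene Gm43738 over 7512 bases of it on the same strand, and fragments may have been split between them. Idi1, which converts isopentenyl diphosphate to its reactive isomer, had an FPKM of 9.15 and 6.91, a difference of -0.40 [-0.55 to -0.26]. Its close relative Idi2 had 2 fragments (sham) and 0 (irradiated), so the isomerase RNA measured here was almost all from Idi1.

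Hmgcs1 encodes the cytosolic HMG-CoA synthase and is a textbook target of SREBP2. It lies on chromosome 13 from 119690351 to 119708260, and its FPKM was 37.7 (sham) and 29.1 (irradiated). The difference of -0.37 [-0.43 to -0.31] rested on 5201 and 4598 fragments. Its promoter is shown because it is the one member promoter in which the letters of a sterol regulatory element, TCACNCCAC, were found on either strand. The sequence is that of RefSeq, GRCm38.p6, chr13:119690101-119690350, plus strand, and ends at the base before the start site. Capitals mark the sterol regulatory element, which starts at -137, and 3 CCAAT boxes, read here as ATTGG on the other strand. The position counts from the RefSeq start, which is also the deposited start of the gene. The bases just after that start were not found near the start of the GENCODE transcripts of Hmgcs1. The CCAAT box is the site of NF-Y, a factor that SREBP2 commonly works with.
Hmgcs1: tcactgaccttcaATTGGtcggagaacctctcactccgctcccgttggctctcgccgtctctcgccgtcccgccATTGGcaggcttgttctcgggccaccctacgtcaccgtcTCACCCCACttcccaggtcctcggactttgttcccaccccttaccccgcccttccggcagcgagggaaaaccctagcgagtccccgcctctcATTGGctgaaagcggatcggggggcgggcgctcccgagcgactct

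Of the 27 genes, 22 had at least 1 such window in the RefSeq promoter table, with 28 windows in all, and the 250 bases before each start were searched on both strands. A CCAAT box was present in 20 of the 28 windows (71.4%) and in 33.9% of all 32851 windows. The sterol regulatory element was present in 1 of the 28 windows (3.57%) and in 1.05% of all windows. The 2 motifs share no letters in the Hmgcs1 promoter. Counted by gene, 20 of the 22 members with a window held a CCAAT box (90.9%). This share was 37.5% over all 27025 genes with a window, which were not limited to expressed genes. Among the 11 genes lower by at least 0.25, 7 had a window and 6 of these held a CCAAT box, as did 14 of the 15 other members with a window. These are matches of letters and do not show binding.

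Acat2, the cytosolic thiolase that joins the first acetyl-CoA units, had an FPKM of 14.6 (sham) and 11.5 (irradiated), a difference of -0.35 [-0.48 to -0.22]. Acat3, its neighbouring relative on chromosome 17, had 0.46 and 0.49, and fragments of similar genes may have been split between them. Mvk, mevalonate kinase, had an FPKM of 5.92 and 4.72, a difference of -0.32 [-0.51 to -0.14]. Pmvk and Mvd, the last steps before the isomerase, had smaller differences, but their intervals also include the difference of Mvk. Pmvk, phosphomevalonate kinase, had an FPKM of 4.43 and 3.90 (difference -0.18 [-0.45 to 0.09]). Mvd, which decarboxylates the product to isopentenyl diphosphate, had 5.96 and 5.40 (difference -0.14 [-0.36 to 0.08]). Both intervals include 0, and neither difference was detectable at these depths of 230 to 350 fragments per gene. Ggps1, which makes geranylgeranyl diphosphate for the prenylation of proteins and not for sterols, had an FPKM of 12.3 and 11.5, a difference of -0.09 [-0.20 to 0.01].

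**Figure D2:**
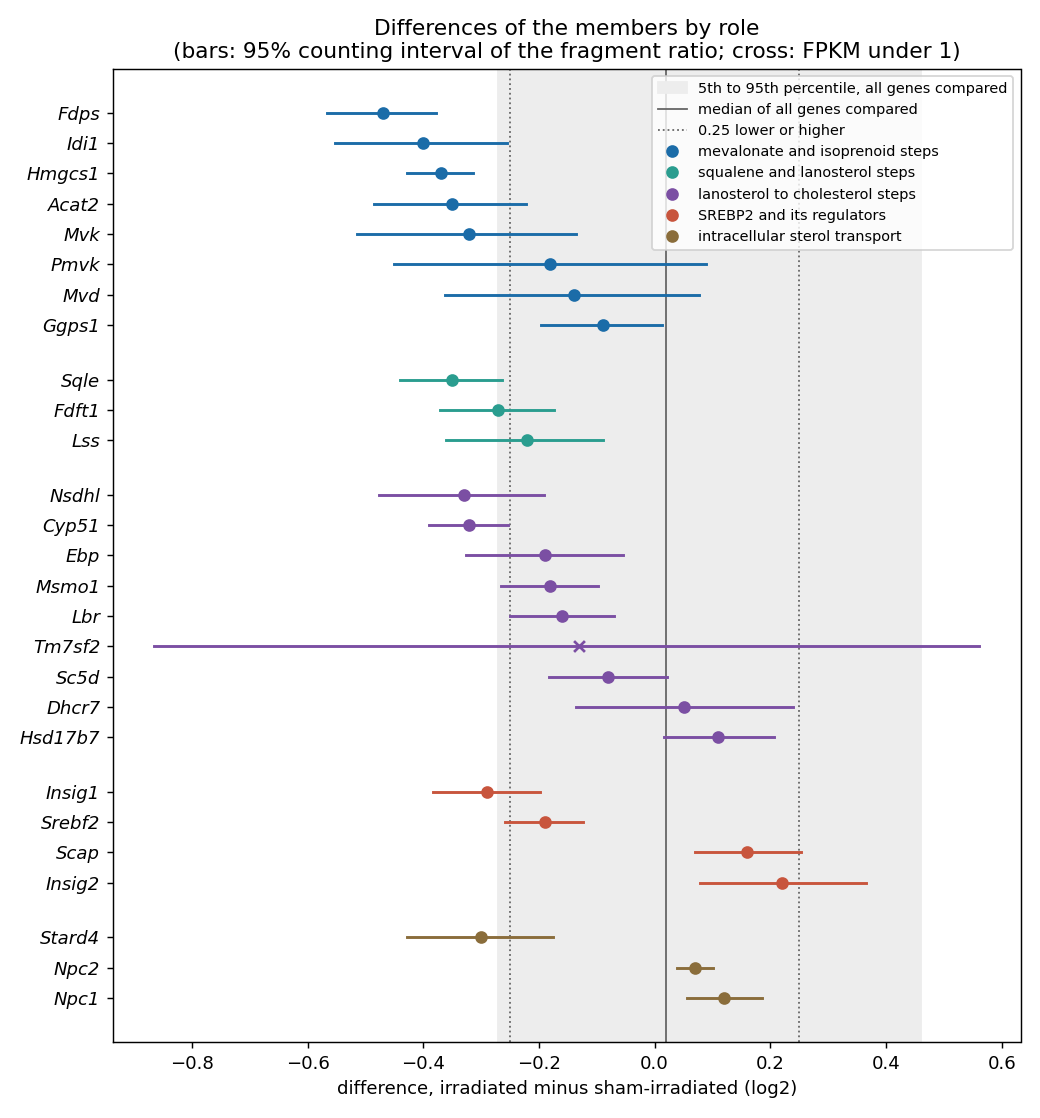
Difference of each of the 27 genes (irradiated minus sham-irradiated, log2), ordered within each role, with bars for the 95% counting interval, grey shading from the 5th to the 95th percentile of all genes compared (-0.27 to 0.46), and dotted lines at -0.25 and 0.25. The mevalonate and squalene genes lie to the left of 0, and Scap, Insig2, Npc1, Npc2, and Hsd17b7 have bars wholly to the right of it.

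All 3 genes of the squalene and lanosterol steps were lower, with counting intervals below 0 and a summed FPKM of 45.9 and 37.0. Sqle, squalene epoxidase, which carries out the first step that needs oxygen, had an FPKM of 26.3 (sham) and 20.6 (irradiated). Its difference was -0.35 [-0.44 to -0.26]. Fdft1, squalene synthase, which commits farnesyl diphosphate to sterols, had an FPKM of 15.5 and 12.8, a difference of -0.27 [-0.37 to -0.17]. Its annotated span overlaps that of Ctsb on the opposite strand by 773 bases, and Ctsb had a difference of 0.46, in the other direction. Lss, which closes the lanosterol ring, had an FPKM of 4.22 and 3.61, a difference of -0.22 [-0.36 to -0.09].

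The steps from lanosterol to cholesterol were more mixed. Of the 8 genes compared, 6 were lower, 2 of them by at least 0.25, and the median difference was -0.17. Cyp51, the lanosterol demethylase, had 3586 fragments (sham) and 3281 (irradiated) and an FPKM of 21.6 in the irradiated library. Its difference was -0.32 [-0.39 to -0.25], or 0.801 of the sham-irradiated value. Nsdhl, a sterol dehydrogenase that helps remove methyl groups, had an FPKM of 12.5 and 9.96, a difference of -0.33 [-0.48 to -0.19]. These were the values of this stage that came closest to those of Sqle and Hmgcs1.

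Ebp, Msmo1, and Lbr showed smaller differences with intervals below 0. Ebp, a sterol isomerase, had an FPKM of 16.7 and 14.6, a difference of -0.19 [-0.33 to -0.05]. Msmo1, the methylsterol monooxygenase that acts before Nsdhl, had 16.9 and 14.9, a difference of -0.18 [-0.27 to -0.10]. Lbr, a sterol reductase that also anchors chromatin at the nuclear envelope, had 18.2 and 16.2, a difference of -0.16 [-0.25 to -0.07]. Tm7sf2 encodes a second reductase for the same step, and it had an FPKM of 0.43 and 0.39 on 35 and 36 fragments. It was the member left out by the minimum of 1, and the FPKM of Lbr was 42.0 times as high in both libraries. GENCODE places Vps51 over 532 bases of Tm7sf2 on the same strand, and fragments may have been split between them. The FPKM of Vps51 was 4.34 (sham) and 4.16 (irradiated).

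Sc5d, Dhcr7, and Hsd17b7 lay closest to 0 or above it. Sc5d, the sterol desaturase, had an FPKM of 21.5 (sham) and 20.3 (irradiated), a difference of -0.08 [-0.18 to 0.02]. Dhcr7, which reduces the last double bond on the way to cholesterol, had 5.03 and 5.21, a difference of 0.05 [-0.14 to 0.24]. Both intervals include 0. Hsd17b7, a ketoreductase that works with Msmo1 and Nsdhl, was the synthesis gene with a counting interval above 0. Its FPKM was 10.8 and 11.6, a difference of 0.11 [0.02 to 0.21]. Of the 19 synthesis genes compared, 13 had an interval below 0, 5 had one that included 0 (Pmvk, Mvd, Ggps1, Sc5d, and Dhcr7), and 1 had one above 0.

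The regulators of SREBP2 were split in direction. Srebf2, the gene of SREBP2 itself, had an FPKM of 20.7 (sham) and 18.2 (irradiated), a difference of -0.19 [-0.26 to -0.12]. Scap, the escort that carries SREBP2 to the Golgi, had 13.4 and 14.9, a difference of 0.16 [0.07 to 0.25]. The FPKM of Srebf2 was 1.55 times that of Scap in the sham-irradiated library and 1.22 times in the irradiated library.

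The INSIG genes, whose products hold SCAP back in the endoplasmic reticulum, lay on opposite sides of 0. Insig1 is on chromosome 5 from 28071412 to 28078662. Its FPKM was 24.3 and 19.9, a difference of -0.29 [-0.38 to -0.20]. Insig2 is on chromosome 1 from 121304353 to 121332589. Its FPKM was 7.74 and 9.03, a difference of 0.22 [0.08 to 0.36]. The difference of Insig2 was 0.51 above that of Insig1, and the ratio of their FPKM was 3.14 (sham) and 2.20 (irradiated). Insig1 is known as a gene that SREBP2 switches on, whereas Insig2 is known for a weaker dependence on it. Their promoters are shown because the genes differed in direction while their proteins have the same role. The Insig1 sequence is chr5:28071162-28071362 on the plus strand, and the Insig2 sequence is chr1:121332590-121332839 on the minus strand (RefSeq, GRCm38.p6). Capitals mark CCAAT boxes on either strand. The Insig1 window is cut at the start site of the GENCODE annotation, which lies before that of RefSeq.
Insig1: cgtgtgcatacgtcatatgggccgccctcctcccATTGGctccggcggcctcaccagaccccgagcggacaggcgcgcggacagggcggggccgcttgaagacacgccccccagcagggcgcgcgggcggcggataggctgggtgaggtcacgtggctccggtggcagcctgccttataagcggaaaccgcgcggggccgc
Insig2: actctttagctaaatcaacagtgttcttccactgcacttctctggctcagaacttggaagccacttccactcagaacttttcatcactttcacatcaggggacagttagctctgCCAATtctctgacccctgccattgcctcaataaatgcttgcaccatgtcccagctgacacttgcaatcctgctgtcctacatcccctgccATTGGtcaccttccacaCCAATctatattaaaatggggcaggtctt

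The Insig1 window held 1 CCAAT box and the Insig2 window held 3, and the letters TCACNCCAC were in neither. G and C made up 72.6% of the Insig1 window, which has 201 bases, and 47.2% of the Insig2 window, which has 250. Insig2 has other start sites in the RefSeq table, and their windows, with 56.8% and 69.6% of G and C, held none of the searched letters. The Insig2 window shown is the one at the deposited start site, and which start these cells used was not tested.

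Among the genes of sterol transport, the cytosolic carrier was lower in the irradiated library and both lysosomal proteins were higher. Stard4, a carrier that moves cholesterol between membranes and is a known SREBP2 target, had an FPKM of 10.5 (sham) and 8.47 (irradiated). Its difference was -0.30 [-0.43 to -0.18]. Npc1, the lysosomal membrane protein that exports cholesterol, had 13.1 and 14.2, a difference of 0.12 [0.06 to 0.19]. Its span in the deposited table overlaps that of 3110002H16Rik on the opposite strand by 276 bases, and that gene had a difference of 0.30, in the same direction. Npc2, its soluble partner, had by far the highest level of the 27 genes, with an FPKM of 153.2 and 160.8. The difference of Npc2 was 0.07 [0.04 to 0.10], and the deposited values were rounded to 2 decimals.

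**Figure D3:**
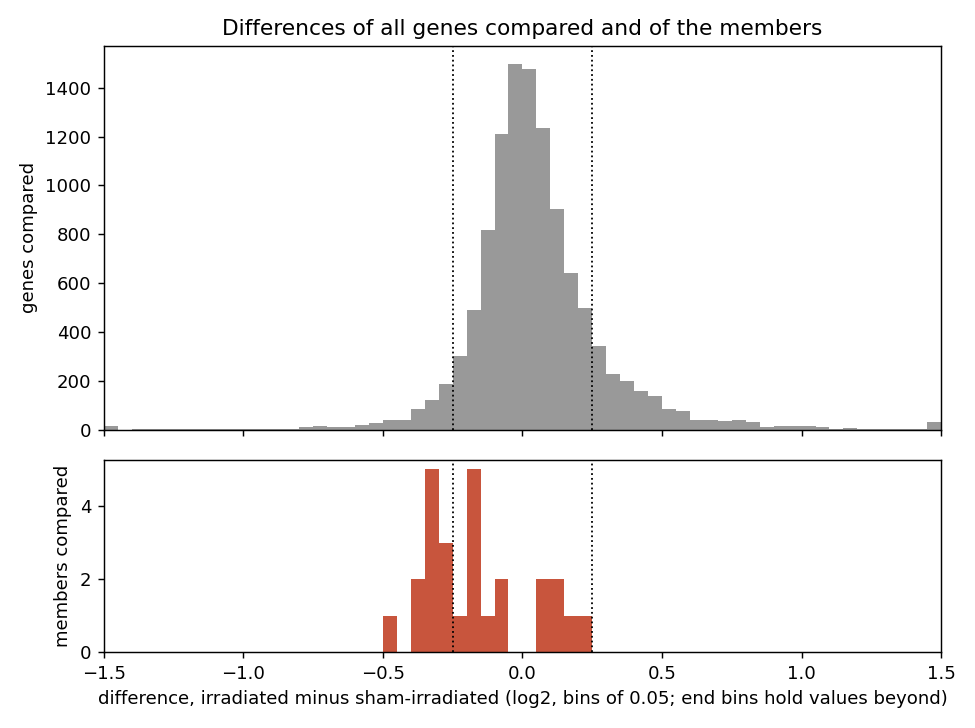
Number of genes by difference (irradiated minus sham-irradiated, log2, bins of 0.05) for all 11253 genes compared in the upper panel and for the 26 members compared in the lower panel, with dotted lines at -0.25 and 0.25. All genes centre on 0.02, and the members lie between -0.47 and 0.22, with 11 at or below -0.25.

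Other genes of sterol and isoprenoid metabolism were read from lists chosen beside the members. Of 5 further genes reported as SREBP targets, 3 were lower and 1 was so by at least 0.25. Over all genes compared, 44.0% were lower and 6.04% were so by at least 0.25. This was Tmem97, a sterol-binding membrane protein, with an FPKM of 70.9 (sham) and 47.1 (irradiated). Its difference was -0.59 [-0.67 to -0.51], below that of every member. Mmab, a cobalamin enzyme, had 3.68 and 3.15 (difference -0.22 [-0.43 to -0.02]). Acly, which supplies cytosolic acetyl-CoA, had 63.02 and 63.5, a difference of 0.01. Aacs had 18.4 and 17.3 (difference -0.09), and Acss2 had 1.03 and 1.16 (difference 0.15). The intervals of Acly, Aacs, and Acss2 include 0. The factor that is best known for fatty acid synthesis, Srebf1, had 9.35 and 9.15, a difference of -0.03 [-0.14 to 0.08].

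The machinery that cuts SREBP2 or degrades sterol enzymes had a median difference of 0.02, the same as all genes compared. Of the 9 genes, 0 passed 0.25 in either direction, and their summed FPKM was 228.6 and 229.9. Over all genes compared, 13.8% were higher and 6.04% lower by that amount, and a count over 9 genes cannot be told apart from these shares. The gene with the largest difference was Mbtps1, the first protease that cuts SREBPs in the Golgi, with an FPKM of 26.6 (sham) and 24.2 (irradiated). Its difference was -0.14 [-0.19 to -0.09].

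Genes that store and release cholesterol as esters had higher values in the irradiated library, opposite to the synthesis genes. Of the 4 genes, 3 reached an FPKM of 1, and all 3 were higher by at least 0.25, as were 13.8% of all genes compared. Soat1, which esterifies cholesterol, had an FPKM of 38.5 (sham) and 52.2 (irradiated), a difference of 0.44 [0.40 to 0.49]. Lipa, the lysosomal acid lipase that frees cholesterol from esters, had 53.3 and 71.4, a difference of 0.42 [0.37 to 0.47]. Nceh1, a neutral cholesteryl ester hydrolase, had 12.2 and 16.5, a difference of 0.43 [0.35 to 0.52]. Soat1, Lipa, and Nceh1 are known for high levels in macrophages, and the 8 macrophage markers did not share a direction. They ranged from -0.11 for Lyz2 and -0.02 for Adgre1 to 0.80 for C1qa and C1qc, with a median of 0.485. The part of macrophages in these differences was not tested.

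Of the 7 genes of LXR and cholesterol efflux, 3 had a difference of 0.25 or above and 0 had one of -0.25 or below. Over all genes compared, these shares were 13.8% and 6.04%. LXR is the nuclear receptor that senses oxysterols when cholesterol is in excess. Abcg1, an efflux transporter and LXR target, had an FPKM of 1.36 (sham) and 1.98 (irradiated), a difference of 0.51 [0.32 to 0.77]. Mylip, an LXR target that marks lipoprotein receptors for degradation, had 2.25 and 3.08, a difference of 0.44 [0.20 to 0.72]. Nr1h3, one of the LXR genes, had 1.75 and 2.13, a difference of 0.27 with an interval from -0.09 to 0.65. Abca1, another efflux transporter and LXR target, had 13.4 and 12.7, a difference of -0.08 [-0.14 to -0.02], so the LXR targets did not share a direction. In the same list, Lpcat3 had 22.2 and 20.6, a difference of -0.11 [-0.20 to -0.02]. Nr1h2 had a difference of 0.15 [0.01 to 0.29], and Srebf1, given above, had -0.03.

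**Figure D4:**
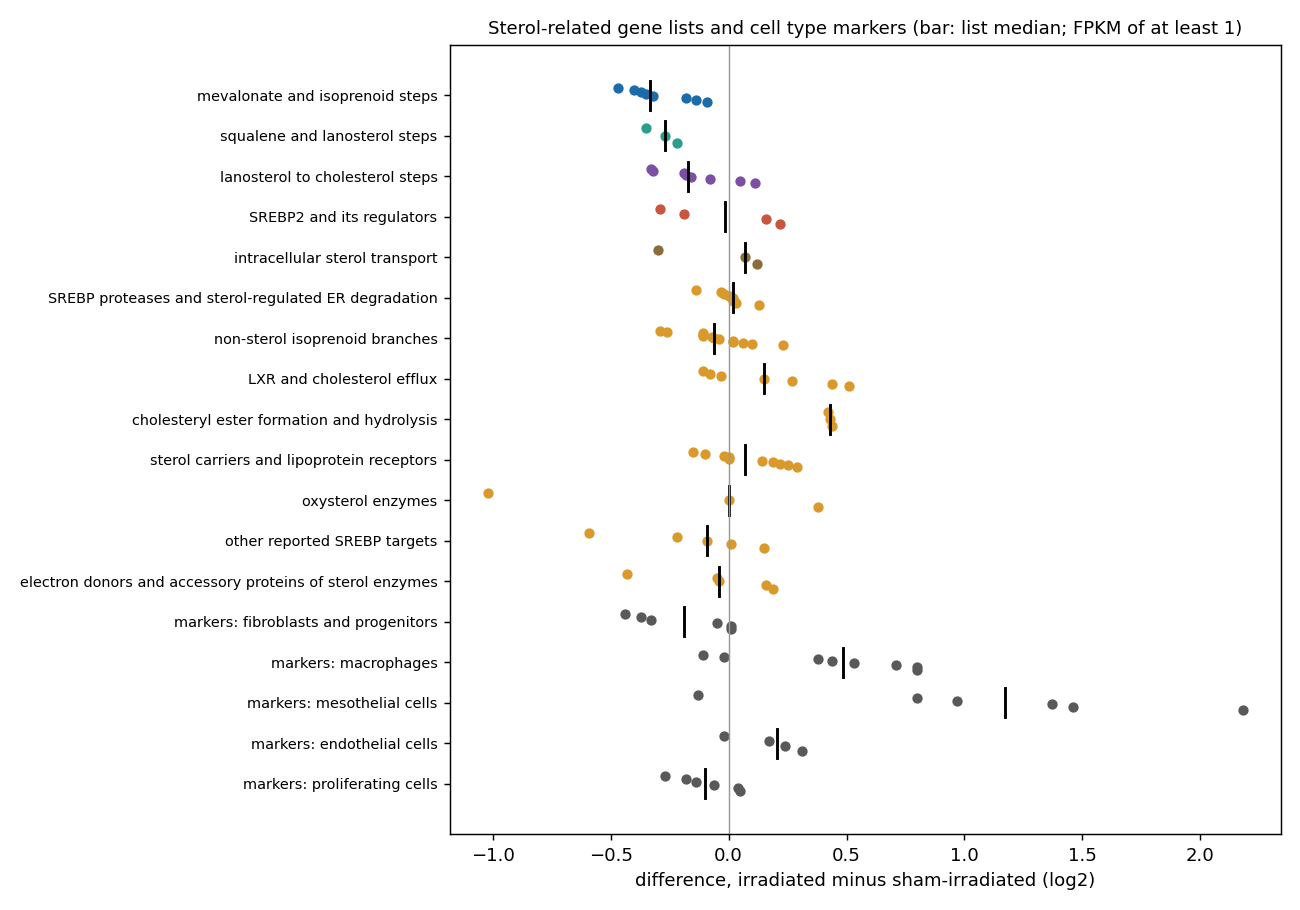
Difference of each gene that reached an FPKM of 1 (irradiated minus sham-irradiated, log2) in the lists of sterol-related genes and cell type markers, with a black bar at each list's median. The mevalonate list has a median of -0.34, the cholesteryl ester list 0.43, the macrophage markers 0.485, and the mesothelial markers 1.17.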

How the data were processed

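For each gene, the authors deposited its length and the log2 of FPKM plus 0.1 (2 decimals) in 1 sham-irradiated and 1 irradiated library. The submitters' processing notes name mm10; the sources used here do not name an aligner, a counting tool or a strand setting. Of the 27 genes, 22 shared the chromosome and a start or end with RefSeq GRCm38.p6. FPKM was recovered by removing the logarithm and the 0.1. Library totals were those that gave whole fragments for genes with few fragments, and all 3457 and 3434 such genes lay within 0.12 of a whole number. Fragments of highly expressed genes are approximate. Clopper-Pearson intervals (95%) of the fragment ratio cover counting error only, since PCR copies are not independent molecules, and counts were read against all genes with an FPKM of at least 1. The steps were tested on simulated data.

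Groups came from the sample labels, and each library had its own column. The members and lists were chosen with earlier results of these data known. The rule for named genes covered all members, the gene of largest difference in each further list, and promoters that held the sterol regulatory element. Promoters of Insig1 and Insig2, Acat3, Idi2, Ctsb, Gm43738, Vps51, 3110002H16Rik, Wt1, and the other genes named from the further lists were chosen after their values were seen. Alternatives were a pseudocount of 1, no minimum or a minimum of 5, centring, scaling without the 100 most abundant genes, removal of a gene length trend over 10 bins, thresholds of 0.5 and 1, the mean, 99% intervals, and totals of the fragments on listed genes. Figures were drawn with matplotlib 3.10.9, and values were computed with SciPy 1.17.1, pandas 2.3.3, and numpy 2.4.6 under Python 3.11.15.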

Additional observations from a re-analysis of the deposited data

How the results depend on the processing

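No paired analysis was possible because 1 library stood for each condition, and no replicate could be left out for the same reason. With thresholds of 0.5 and 1, 0 members were lower by that amount, against 11 at 0.25. Over all genes compared, 1.44% were lower by 0.5 and 0.373% by 1. At such small shares, a count of 0 among 26 says little. The count of 11 was the same with log2(FPKM + 1), without a minimum FPKM, with a minimum of 5, after centring, after scaling without the 100 most abundant genes, and after removal of the gene length trend, and 0 members were higher by 0.25 in each. Over all genes in these settings, the share lower by 0.25 ranged from 4.17%, with log2(FPKM + 1), to 7.85%, without a minimum. The share higher by 0.25 ranged from 9.82%, with a minimum of 5, to 14.2%, without a minimum. The median of the members ranged from -0.21, after centring, to -0.18, with log2(FPKM + 1), and their mean was -0.17. Under these settings no member changed sign. With 99% intervals, 16 lay below 0 and 4 above, and with a minimum FPKM of 5, 15 lay below 0 and 5 above. Depth limits Tm7sf2, whose interval ran from -0.87 to 0.56.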

Other observations

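Cyp7b1, which hydroxylates oxysterols, had the largest difference of all the sterol-related genes listed here. Its FPKM was 17.8 (sham) and 8.72 (irradiated), a difference of -1.02 [-1.17 to -0.89] on 1174 and 658 fragments, and 0.355% of all genes compared had a lower difference. The other oxysterol enzymes differed from it. Ch25h, which makes 25-hydroxycholesterol, had an FPKM of 32.3 in both libraries. Hsd3b7, which acts after Cyp7b1 in bile acid synthesis, had 2.69 and 3.53, a difference of 0.38 [0.13 to 0.65]. Cyp27a1 stayed below an FPKM of 1, with 0.65 and 0.79.

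Of the 13 genes that use isoprenoids for prenylation, dolichol, or ubiquinone, 2 were lower by at least 0.25 and 0 were higher by that amount, with a median of -0.06. Over all genes compared, 6.04% were lower and 13.8% higher by that amount. The counting interval included 0 for 10 of the 13. Pdss2, a subunit of the enzyme that makes the ubiquinone side chain, had an FPKM of 2.45 and 1.98. Its difference was -0.29, with an interval from -0.62 to 0.00 that includes 0. Its partner subunit Pdss1 had 4.16 and 4.89, a difference of 0.23 [0.02 to 0.46]. Rce1, a protease of prenylated proteins, had 7.79 and 6.49, a difference of -0.26 [-0.48 to -0.05].

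Of 11 genes of sterol carriers and lipoprotein receptors, 10 were compared, 2 were higher by at least 0.25 and 0 lower. Over all genes compared, 13.8% were higher and 6.04% lower by that amount. Stard3, a late endosomal carrier, had an FPKM of 4.79 and 5.88, a difference of 0.29 [0.09 to 0.50], and Scarb1, the receptor of high-density lipoprotein, had 5.68 and 6.77, a difference of 0.25 [0.09 to 0.42]. Vldlr had 7.01 and 6.31, a difference of -0.15 [-0.25 to -0.06]. Among 5 electron donors and accessory proteins, Ebpl, a relative of Ebp, had 2.71 and 1.98, a difference of -0.43 [-0.78 to -0.12], while Por, which feeds electrons to Cyp51 and Sqle, had 49.4 and 56.4, a difference of 0.19 [0.13 to 0.25].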
